A study of Mus musculus with 10 samples.

Results

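Timp1, Timp2, Timp3, Timp4, Mmp2 and Mmp14 were described in the embryonic mouse neocortex, a set of 4 tissue inhibitors of metalloproteinases and the 2 matrix metalloproteinases most closely tied to them. The members were found by gene symbol, as every array probe whose single symbol is one of these names. They were 6 probes for 6 genes, of 21766 probes and 15063 named genes on the array. The set was chosen from measured values, because Timp1 had one of the highest caudal ratios in these data, so the caudal over rostral ratios below are a description and carry no p-value. The RNA came from E11.5 embryos of MF1, an outbred stock, and of C57, the inbred C57Bl\6 strain, and no allele or treatment is named for either. Each pool joined the tissue of 3 embryos, and the neocortex was cut so that its rostral and its caudal part were collected apart, with the left and right cortices of a litter put together. The little RNA this gave was amplified as cDNA. Caudal and rostral RNA from 1 pool, 1 in Cy5 and the other in Cy3, shared a 2-colour array, and another array repeated the pair with the dyes exchanged. There were 3 MF1 pools on 6 arrays and 2 C57 pools on 4 arrays, so a pool and not an array is the replicate.

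Matrix metalloproteinases are zinc-dependent enzymes that cut collagens, laminins and other proteins around cells, and the TIMPs are small secreted proteins that bind to their active site and block it. The membrane-bound enzyme made from Mmp14 activates the secreted gelatinase made from Mmp2, and TIMP2 has a part in both directions, since it joins the proenzyme to the membrane-bound enzyme and also inhibits both. TIMP1 inhibits most secreted metalloproteinases but is a poor inhibitor of the membrane-bound ones, while TIMP3 is held in the matrix and also inhibits several ADAM proteases. In the developing brain, such enzymes act in the basement membrane under the meninges, in growing vessels and around migrating cells.

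The promoters of Timp1 and Timp3, the inhibitors with the highest caudal ratios, are shown as examples of the family and carry no finding of their own. In RefSeq (GRCm38.p6), the 250 bases before the start of Timp1 are chrX:20869916-20870165 on the plus strand, and those before the start of Timp3 are chr10:86300162-86300411 on the plus strand. Capitals mark a match to GGGCGG, the core of the GC box, which lies on the opposite strand in each and so reads CCGCCC here.
Timp1: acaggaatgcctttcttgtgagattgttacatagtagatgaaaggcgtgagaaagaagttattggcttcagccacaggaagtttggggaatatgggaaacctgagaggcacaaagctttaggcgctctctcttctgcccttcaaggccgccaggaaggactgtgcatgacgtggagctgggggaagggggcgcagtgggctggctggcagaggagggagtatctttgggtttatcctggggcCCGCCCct
Timp3: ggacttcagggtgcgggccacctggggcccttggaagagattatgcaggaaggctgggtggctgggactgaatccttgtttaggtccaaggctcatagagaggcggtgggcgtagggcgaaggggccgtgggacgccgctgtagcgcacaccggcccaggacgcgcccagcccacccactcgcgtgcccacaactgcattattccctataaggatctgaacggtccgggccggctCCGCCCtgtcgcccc
The match began 8 bases before the start of Timp1 and 15 bases before that of Timp3, which held another at base 14 counted from its start. The windows of Timp2 and Mmp14 held 1 and 2 matches and that of Timp4 held 0, so 4 of the 5 windows had it. GGGCGG on either strand was present in 35.7% of the 32851 mouse promoters of the same 300-base length, which run from 250 bases before a gene's start to 50 after it. Timp1 also held a match to TGAGTNA, a form of the AP-1 site, at base 27 counted from its start. It is shown in capitals within chrX:20870182-20870208 on the plus strand.
Timp1: ggtgggtggaTGAGTAAtgcgtccagg
TGAGTNA on either strand was present in 14.7% of those promoters, and the promoter windows of Timp2, Timp3, Timp4 and Mmp14 had 0 matches. Of the 6 members, 5 matched an entry of the RefSeq promoter table, all but Mmp2. These matches are letters in a window and were not tested as sites. In the same annotation Timp1 lies inside the span of Syn1 on chromosome X, Timp3 inside that of Syn3 on chromosome 10, and Timp4 inside that of Syn2 on chromosome 6. Timp1 and Timp4 run on the strand opposite to their synapsin host.

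Ratios are given on the log2 scale as caudal RNA over rostral RNA, and positive ones stand for more RNA at the caudal end. The sources do not state the numerator, and the direction, likely but no more, comes from reading the deposited ratio as Cy5 divided by Cy3. With the other reading every sign would turn, that of the dye order difference included. Of the probes for textbook gradient genes, 6 of 9 for rostral genes were negative and 6 of 7 for caudal genes positive, several of them close to 0. Since 69.4% of all tested probes had a positive ratio, the caudal count alone says little about direction. Among the clearest, a probe of Nr2f1, a nuclear receptor with a caudal gradient, stood at 1.85 ± 0.22 and Spry1, an FGF feedback inhibitor known from the rostral end, at -1.28 ± 0.14 (SE, n = 5 pools). Another Nr2f1 probe stood at 0.57 ± 0.20, while Fgf8 stood at -0.01, Fgf17 at 0.13, Wnt8b at -0.04 and Emx2 at 0.10. The ratios hold no level of either RNA, so genes are compared here by ratio alone, and fewer cells of a type cannot be told apart from less RNA per cell. The MF1 arrays gave a ratio for 13723 to 18288 probes and the C57 arrays for 20191 to 20870, and the number of arrays limits the precision. The values were not centred, and the median ratio over all measured probes lay at -0.198, 0.110 and 0.152 in MF1 pools 1 to 3 and at -0.168 and 0.374 in C57 pools 1 and 2.

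Timp1 had the highest ratio of the set in every MF1 pool and in both C57 pools. Its pool ratios were 2.49, 2.04 and 2.10 in the MF1 pools, against 0.35 and 1.19 in the C57 pools. All were positive, and every MF1 pool lay above both C57 pools, as for 76 of the 8924 probes measured in all 5 pools (0.852%). The mean of both strains was 1.49 ± 0.19 (SE, n = 5 pools), or 2.81-fold, which ranked 5 among the 11855 probes tested. Between strains it was 2.21 ± 0.23 in MF1 (4.63-fold, n = 3) and 0.77 ± 0.29 in C57 (1.71-fold, n = 2). The files used here hold ratios and no channel intensities, so how far either RNA stood above background, and with it how exact a high ratio such as that of Timp1 in MF1 is, is not known. After subtraction of the pool's median it was 2.69, 1.93 and 1.95 in MF1 and 0.52 and 0.81 in C57, so its sign did not rest on the shifts of whole arrays. Over all probes, limma with Benjamini-Hochberg adjustment at 0.05 called 0 of 11855 (0%), with 367 at an unadjusted p under 0.05 and a smallest adjusted p of 0.567.

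Timp3, the matrix-bound inhibitor, was the only other member with a positive ratio in all 5 pools. Its pool ratios were 0.01, 1.11 and 1.54 in MF1 and 0.07 and 0.75 in C57. In each strain 1 pool was close to 0 and the others were clearly positive, and the strains overlapped. The mean of both strains was 0.65 ± 0.27 (SE, n = 5 pools), or 1.57-fold, rank 268. A positive ratio in all 5 pools was found for 371 of the 8924 probes measured in all of them (4.16%), and a negative one for 66 (0.74%). The count of 2 such members, out of 5, belongs to the contrast that chose the set, and nothing is read from it. The 2 pools near 0 for Timp3 were those whose median over all probes was negative. Relative to the pool's median it was 0.21, 1.003 and 1.39 in MF1 and 0.24 and 0.38 in C57.

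Timp2, the inhibitor that takes part in the activation of the Mmp2 product, split in sign within both strains before the pool's median was subtracted. Its pool ratios were -0.03, 1.10 and 0.82 in MF1 and -0.34 and 0.41 in C57, with pool 1 of each strain below 0. The mean was 0.33 ± 0.23 (SE, n = 5 pools), or 1.26-fold, rank 1411, and it was 0.14 without C57 pool 2. Relative to the pool's median Timp2 was 0.17, 0.99 and 0.67 in MF1 and -0.17 and 0.04 in C57. Every MF1 pool was then positive. Timp2 and Timp3 put the pools in nearly the same order, with MF1 pools 2 and 3 above C57 pool 2 and the pools numbered 1 at the bottom. That order is not particular to them, since Mmp7 and Adam11 had it too. The pools numbered 1 were also those with a negative median over all probes. Timp1, in contrast, had its highest value in MF1 pool 1. Timp4, an inhibitor known from heart and brain, gave a ratio on only 3 of the 10 arrays and in 0 pools with both dye orders, so it was not tested. Those values were -1.91 in MF1 pool 1 and -1.12 in C57 pool 1 with caudal RNA in Cy5, and -0.53 in C57 pool 2 with rostral RNA in Cy5. All were negative, and with no pool measured in both orders they have no pool ratio.

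The proteases of the set had mean ratios near the median of all probes or below it. Mmp2, the gelatinase, had pool ratios of 0.21, 0.03 and -0.27 in MF1 and 0.27 and 0.39 in C57. Its mean was 0.16 ± 0.15 (SE, n = 5 pools), or 1.12-fold, rank 4040 and close to the median of all tested probes, 0.087. Mmp14, the membrane-bound activator, had pool ratios of -0.09, -0.47 and -0.60 in MF1 and -0.36 and 0.30 in C57. Of those, 4 were negative, and C57 pool 2, the pool with the highest median over all probes, was the exception. The mean of Mmp14 was -0.21 ± 0.17 (SE, n = 5 pools), or 0.866-fold, rank 10620, and it was -0.04 without C57 pool 1 and -0.37 without C57 pool 2. In order of their means the members stood as Timp1, Timp3, Timp2, Mmp2 and Mmp14. The ranges of 1 SE around Timp3 and Timp2, and around Timp2 and Mmp2, overlapped.

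**Figure D1:**
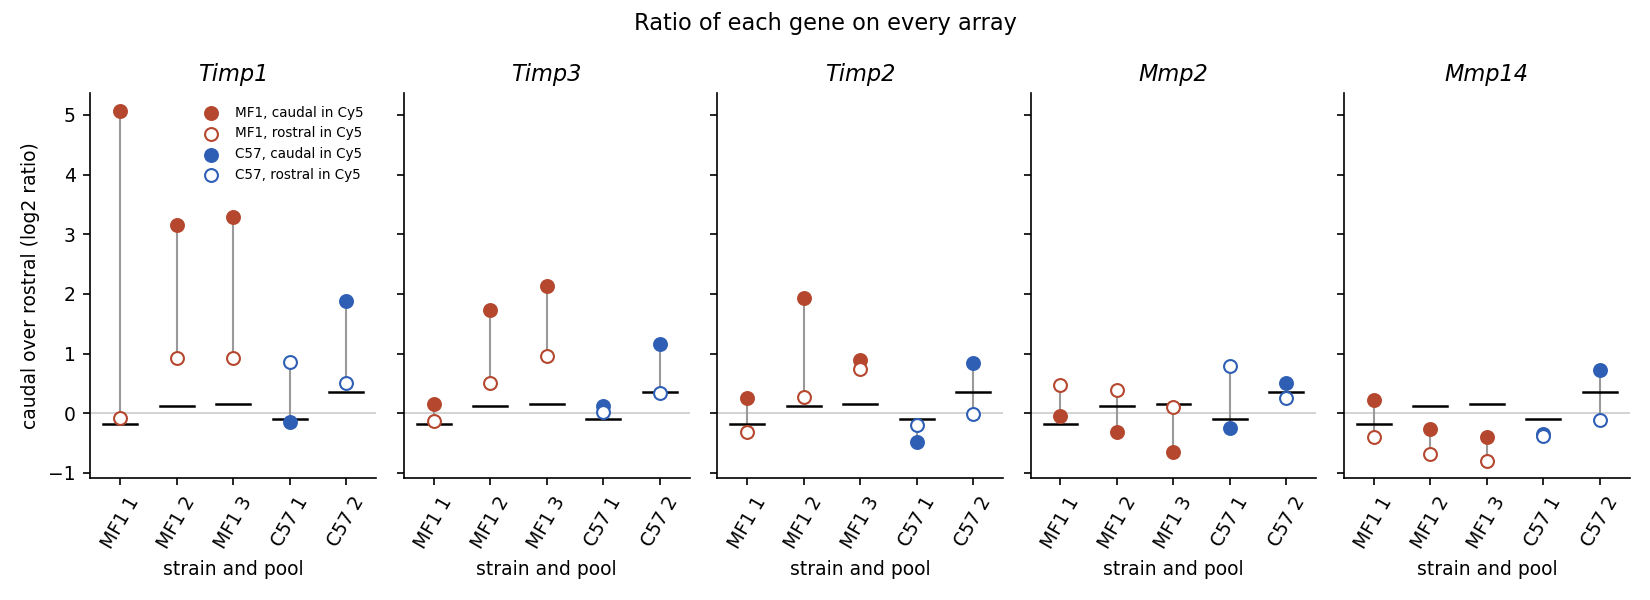
Log2 ratio of caudal over rostral RNA on each array for the 5 members measured on all 10 arrays, with MF1 pools in red and C57 pools in blue, caudal RNA in Cy5 as filled points, rostral RNA in Cy5 as open points, and the median of all tested probes in that pool as a black bar. The 3 filled MF1 points of Timp1 stand at 3.16 to 5.07, and all its open points lie between -0.09 and 0.93.

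The dye exchange gives 2 readings of the same RNAs, and Timp1 differed between them more than any other member. With caudal RNA in Cy5 its ratios were 5.07, 3.16 and 3.28 on the MF1 arrays and -0.14 and 1.87 on the C57 arrays. With rostral RNA in Cy5, turned to the same direction, they were -0.09, 0.93 and 0.92 on the MF1 arrays and 0.85 and 0.50 on the C57 arrays. Timp1 was positive on 8 of the 10 arrays, but its ratios above 2 were those of the MF1 arrays with caudal RNA in Cy5. Its dye order difference, the ratio with caudal RNA in Cy5 minus that with rostral RNA in Cy5, averaged 1.72 ± 0.62 (SE, n = 5 pools, limma adjusted p = 0.181). By pool it was 5.15, 2.23 and 2.36 in MF1 and -0.99 and 1.37 in C57, and without C57 pool 2 the average was 1.13. The mean of both strains for the caudal ratio of Timp1 was 2.35 from the arrays with caudal RNA in Cy5 alone and 0.63 from the others alone.

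The arrays as a whole also differed by dye order. The median dye order difference over all tested probes was 0.358, and 81% of probes had a positive one. None of the 11855 probes (0%) passed an adjusted p of 0.05 in limma, with 3162 at an unadjusted p under 0.05 and a smallest adjusted p of 0.0561. Against this shift, 2.97% of probes had a larger difference than Timp1. After each array was centred on its median, that of Timp1 was 1.40 (adjusted p = 0.323 in limma). Its values less the pool's own median difference were 4.67, 1.96 and 2.18 in MF1 and -1.07 and 0.77 in C57.

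Timp3 and Mmp14 had a positive dye order difference in all 5 pools, as did 2879 of 8924 probes (32.3%). It averaged 0.67 ± 0.23 for Timp3 (SE, n = 5 pools, limma adjusted p = 0.175), 0.54 ± 0.32 for Timp2 (adjusted p = 0.299) and 0.46 ± 0.18 for Mmp14 (adjusted p = 0.192). With the arrays centred these were 0.36, 0.22 and 0.14, so a good part of each was shared with the probes at large. Mmp2 went the other way, at -0.53 ± 0.23 (SE, n = 5 pools, limma adjusted p = 0.217), and 94.4% of probes had a larger value. Its difference was -0.51, -0.71 and -0.76 in MF1 and -1.04 and 0.25 in C57, and it lay below the pool's median in all 5 pools. The mean ratio of Mmp2 changed sign between the dye orders, at -0.11 from the arrays with caudal RNA in Cy5 alone and 0.42 from the others alone. In C57 pool 2, however, Mmp2 was positive in both, at 0.51 and 0.26. Mmp14 stood at 0.02 and -0.44 on the same split. Timp3 kept a positive mean on both, 0.99 and 0.31.

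**Figure D2:**
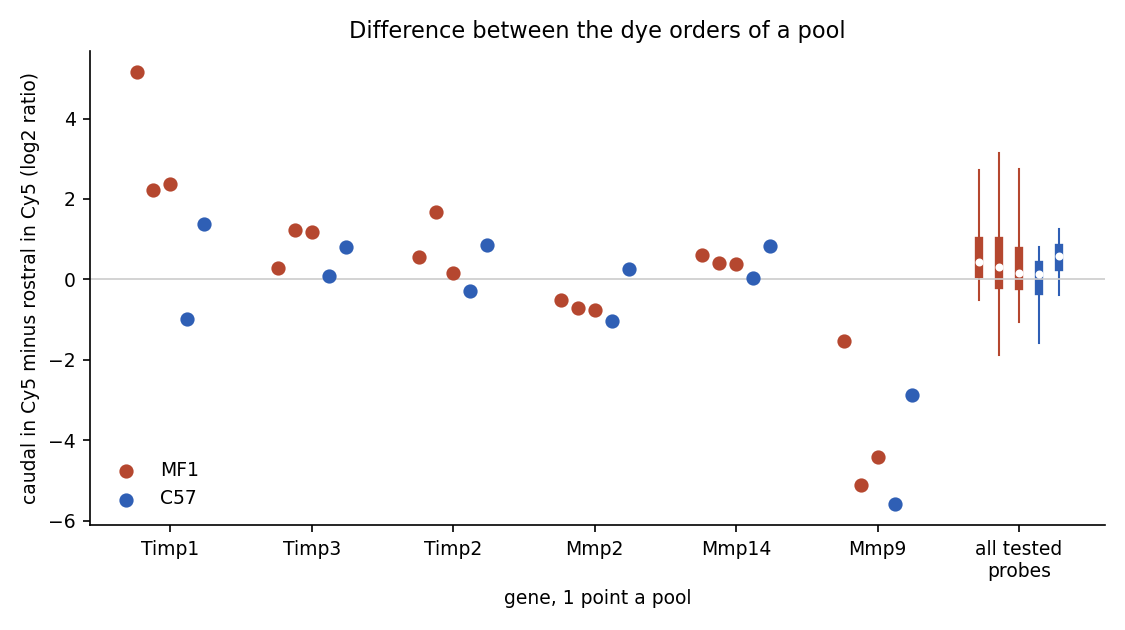
Dye order difference (log2 ratio with caudal RNA in Cy5 minus that with rostral RNA in Cy5) for 5 members and Mmp9, 1 point a pool, with MF1 in red and C57 in blue; at the right, the thin and thick lines of each pool span the 5th to 95th and 25th to 75th percentiles of all tested probes, and the white point is the median. MF1 pool 1 of Timp1 stands at 5.15, and the 5 points of Mmp9 are all negative.

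The study used both strains to separate regional from strain differences, and Timp1 had the largest strain difference of the members. The regional ratio of Timp1 was higher in MF1 than in C57 by 1.44 ± 0.37 (SE, n = 3 and 2 pools, limma adjusted p = 0.999), with every MF1 pool above both C57 pools. No probe of 11855 (0%) passed for this comparison in limma, 223 had an unadjusted p under 0.05, and 0.793% of probes had a larger difference than Timp1. The strain difference was carried by 1 dye order. With caudal RNA in Cy5, Timp1 averaged 3.83 ± 1.07 in MF1 (SD, n = 3 arrays) and 0.87 ± 1.43 in C57 (SD, n = 2 arrays), and the strains differed by 2.97. With rostral RNA in Cy5 it averaged 0.59 ± 0.58 in MF1 and 0.68 ± 0.25 in C57, and MF1 minus C57 was -0.09 (limma adjusted p = 0.985). The test of the dye order difference between strains gave 3.06 ± 1.23 for Timp1 (SE, limma adjusted p = 0.67).

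The strain differences of the other members were smaller than that of Timp1 and none passed the adjusted threshold. The regional ratio in MF1 minus that in C57 was 0.60 ± 0.46 for Timp2, 0.48 ± 0.53 for Timp3, -0.34 ± 0.30 for Mmp2 and -0.36 ± 0.35 for Mmp14 (SE, limma adjusted p = 0.999 each). Over all tested probes the median of this difference was -0.10, and 38.4% were positive. For the inhibitors other than Timp1, leaving out C57 pool 1 reduced the difference to 0.22 for Timp2 and 0.14 for Timp3. For Mmp14, leaving out C57 pool 2 brought it to -0.03. Unlike Timp1, these members kept the sign of their difference in either dye order alone, at 0.85 and 0.34 for Timp2 and 0.70 and 0.26 for Timp3.

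**Figure D3:**
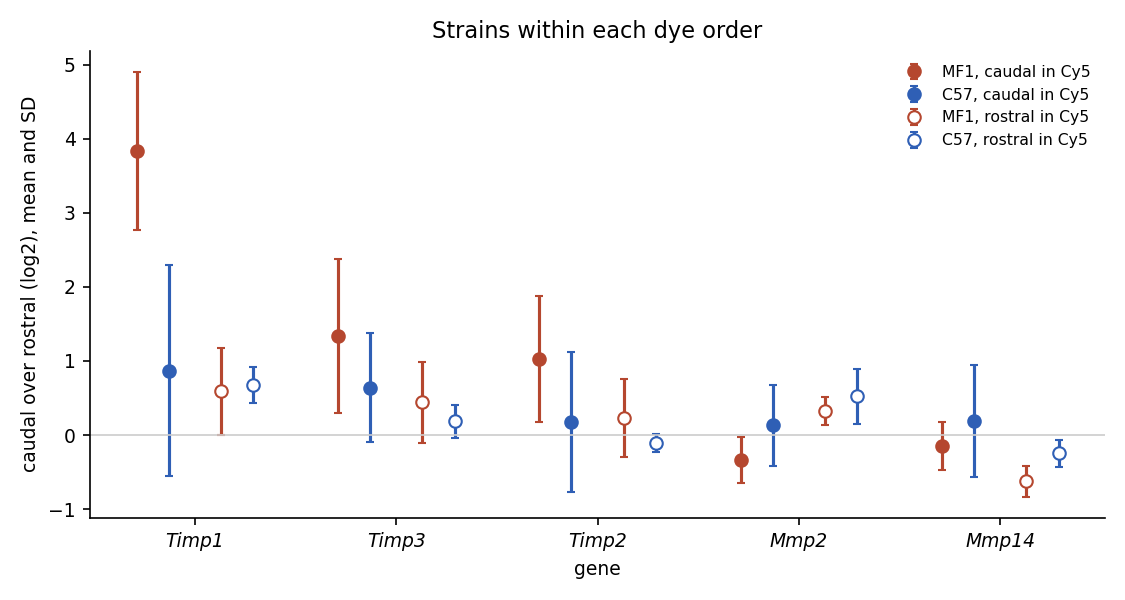
Mean and SD over arrays of the log2 ratio of caudal over rostral RNA, by strain and dye order (MF1 in red, n = 3 arrays; C57 in blue, n = 2; caudal RNA in Cy5 filled, rostral RNA in Cy5 open). For Timp1 the MF1 mean of 3.83 stands above the C57 mean of 0.87 with caudal RNA in Cy5, and the means are 0.59 and 0.68 with rostral RNA in Cy5.

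The arrays' other genes of the same proteolytic system were set beside the members. Of 21 other matrix metalloproteinases, 17 had a probe and 7 were tested, by 8 probes. Over all tested probes 69.4% had a positive ratio, and the counts for each list stand beside that share. Of the 8 probes, 5 were positive and 3 negative, 0 passed the test in either direction, and their median ratio was 0.079, beside 0.333 for the tested members and 0.087 for all tested probes. Mmp7, matrilysin, was the highest at 0.47 ± 0.29, and the membrane-type enzymes Mmp16 and Mmp17 stood at 0.12 ± 0.24 and 0.04 ± 0.17. Mmp9, the other gelatinase and a target of TIMP1, was the lowest at -0.05 ± 0.15. That mean joined opposite readings, because Mmp9 gave -1.38, -2.83 and -2.39 on the MF1 arrays and -2.53 and -1.19 on the C57 arrays with caudal RNA in Cy5. With rostral RNA in Cy5 it gave 0.14, 2.29 and 2.03 on the MF1 arrays and 3.05 and 1.68 on the C57 arrays. Its dye order difference was -3.96 ± 0.70 (SE, n = 5 pools, limma adjusted p = 0.157), opposite in sign to that of Timp1.

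The targets and partners of the TIMPs had ratios nearer to 0 than Timp1. Of 13 tested probes for ADAM and ADAMTS proteases, some of which TIMP3 inhibits, 9 were positive, with a median of 0.051. Adam11 was the highest at 0.56 ± 0.34 and Adam23 the lowest at -0.65 ± 0.43. Of 6 tested probes for other regulators and partners, 4 were positive, with Cd44, a surface receptor that holds proteases, at 0.34 ± 0.30 and a probe of Igf1r at -0.42 ± 0.29. The other tested Igf1r probe stood at 0.26 ± 0.14 and was positive in every pool, so the gene has no single direction here. Reck, a membrane-anchored inhibitor of metalloproteinases, was measured in both dye orders in only 2 pools and was not tested. The plasminogen activator system, another route to metalloproteinase activation, had a median of 0.032 over 5 probes, from Serpinf2 at -0.69 ± 0.26 to Plgrkt at 0.14 ± 0.14. Among 28 probes for matrix substrates 21 were positive, with a median of 0.074, from the laminin chain gene Lama5 at -0.61 ± 0.50 to the proteoglycan gene Lum at 0.77 ± 0.36. None of the probes of these lists passed the test in either direction.

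**Figure D4:**
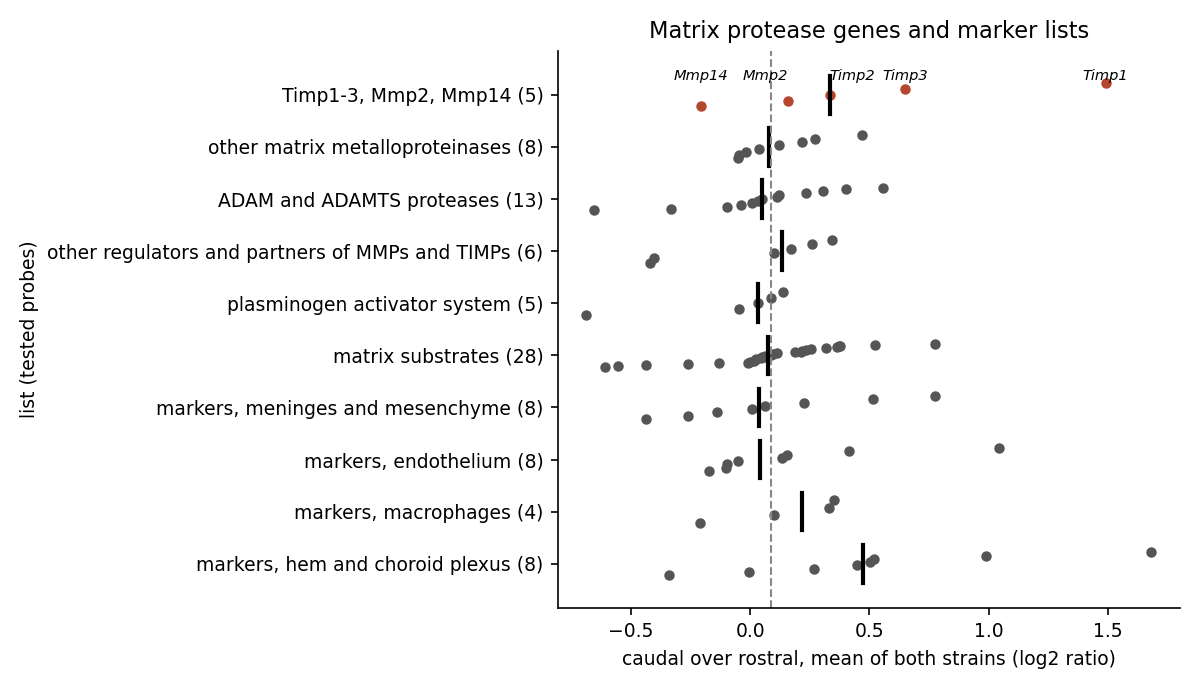
Log2 ratio of caudal over rostral RNA, mean of both strains, for each tested probe of the members (red) and of the lists named at the left (grey), with the number of tested probes; the black bar is a list's median and the dashed line the median of all tested probes, 0.087. Timp1 stands at 1.49, right of every probe of the protease, regulator and substrate lists.

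The synapsin genes that enclose the inhibitors had mean ratios below 0 where they were tested. Syn1, the vesicle protein gene around Timp1, had a mean of -0.13 ± 0.35 over 4 pools, with -1.44 and 0.46 in MF1 pools 1 and 3 and 0.08 and 0.37 in the C57 pools. In MF1 pool 1, Syn1 gave 0.09 with caudal RNA in Cy5 and -2.96 with rostral RNA in Cy5, so its low value came from 1 array, as the high value of Timp1 in that pool came from the other. Syn3, around Timp3, stood at -0.27 ± 0.43 (SE, n = 4 pools). Its pool ratios went either way, at -1.44 and 0.64 in MF1 pools 1 and 2 and -0.79 and 0.51 in the C57 pools. In MF1 pool 1, Syn3 gave 1.28 with caudal RNA in Cy5 and -4.15 with rostral RNA in Cy5. Syn2, around Timp4, was measured in both dye orders in 2 pools and was not tested.

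The genes whose values were most like those of Timp1 depended on which arrays were compared. By root mean square distance over at least 9 shared arrays, the nearest among 9893 probes were Esam at 0.853, Epha5 at 1.14, Cited1 at 1.15, Zfp235 at 1.16 and Tmem38b at 1.18. Each of these 5 lacked 1 MF1 array, and for Epha5 and Zfp235 it was the array of MF1 pool 1 with caudal RNA in Cy5, where Timp1 stood at 5.07. With all 10 arrays required, the nearest of 7530 probes was instead Scrg1 at 1.19, and Timp3 at 1.70 and Timp2 at 1.83 ranked 45 and 153. Without that MF1 pool 1 array for any probe, the nearest of 7580 was Sat2 at 0.706, and Timp3 came to 0.735, rank 5, and Timp2 to 1.07, rank 158. Those requirements were chosen after seeing the data. Mmp2 and Mmp14 were far from Timp1 in either case, at ranks 6333 and 6462 of 7530 and 6227 and 6686 of 7580. Timp3 was thus the member nearest to Timp1, and 1 array held most of the distance between them.

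TIMP and MMP genes are also expressed by vessels, meninges, macrophages and choroid plexus, so markers of those cells were set beside the members. The neuroepithelial markers of the labelled tissue were tested for 9 of 10 genes, with a median ratio of 0.069. Lists are given less the pool's median over all probes, because that median was low in pool 1 of each strain. Endothelial markers, tested for 8 of 9 genes and positive on 4 of 8 probes, then had medians of 0.03, 0.01 and -0.15 in MF1 and 0.06 and 0.19 in C57. Esam, an endothelial adhesion molecule in that list, had a ratio of 1.04 and reached 2.77 in MF1 pool 1, where Timp1 was also highest. In that pool Esam gave 5.91 with caudal RNA in Cy5 and -0.375 with rostral RNA in Cy5. Its high value thus came from 1 array, the same as for Timp1, and Esam had no pool ratio in MF1 pool 2. The other 7 endothelial probes lay between -0.17 and 0.41, with 3 positive. Meningeal and mesenchymal markers, tested for 8 of 17 genes and positive on 5 probes, had -0.12, 0.44 and -0.10 in MF1 and 0.06 and 0.09 in C57. For macrophages, 3 of the 4 markers tested, of 8 listed, were positive, with 0.17, 0.49 and 0.14 in MF1 and 0.03 and 0.07 in C57. In MF1 pool 2 the mesenchymal and macrophage medians were highest, and there Timp2 and Timp3 were 0.99 and 1.003 above the pool's median. In MF1 pool 3, where those marker medians were -0.10 and 0.14, Timp2 was 0.67 above the pool's median. Timp3 had its highest value there, 1.39 above it. Hem and choroid plexus markers had the highest median of the marker lists, 0.475, with 6 of 8 probes positive, and less the pool's median 0.52, 0.47 and 0.44 in MF1 and 0.19 and 0.27 in C57. Less the pool's median, this list was lower in both C57 pools than in any MF1 pool, as Timp1 was with or without that step. Without it, the list's medians were 0.323, 0.576 and 0.588 in MF1 and 0.021 and 0.644 in C57, so the strains overlapped. Its probes went either way between strains, with MF1 minus C57 at -0.97 for Ttr and 0.98 for Lmx1a. Blood markers were positive on 6 of 6 probes with a median ratio of 0.410, and surface ectoderm markers on 0 of 5 with a median ratio of -0.332. Less the pool's median, blood markers had 0.167, 0.042 and -0.058 in MF1 and 0.834 and 0.196 in C57. However, the probes of Hba-a1 and Hba-x had MF1 pool ratios of only -0.008 to 0.04. On single arrays they were nearly equal, such as 0.005 on each in MF1 pool 1 with caudal RNA in Cy5. Whether these probes could show a difference between the RNAs is not known, so the blood values are not read as blood content. Surface ectoderm markers had -0.199, -0.965 and -1.704 in MF1 and -0.258 and -0.196 in C57. The part of any of these cells in the ratios of the members was not tested.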

How the data were processed

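The 10 arrays of 5 pools were analysed. The deposited values are log2 ratios between the channels, as their range and signs show. For scanner, background correction and normalization, the sources used here give nothing. RNA was extracted with Trizol, and its cDNA amplified, per the labels. The design text speaks of 3 sets a strain; a further C57 set is not analysed here.

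Values at the ceiling of 16.61 (436, none on a member's probe) were treated as missing, and 232 control spots were left out. Genes come from the platform annotation, in which 16632 probes had 1 symbol, 139 several and 4995 none. Arrays were turned to caudal over rostral by their dye labels, and the 2 arrays of a pool averaged, or subtracted for the dye order difference. A probe was tested when it had both dye orders in 2 or more pools per strain. limma 3.58.1 (R 4.3.3) fitted 1 coefficient a strain, with 3 residual and 2.69 prior degrees of freedom (1.74 for the dye order), and Benjamini-Hochberg adjustment ran over all 11855 tested probes at 0.05. P-values measure the spread between pools. The fits were tested on simulated data. Figures used matplotlib 3.10.9.

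Members, lists and rules were chosen with earlier results of these data known. Named were every member, the highest and lowest tested probe of each protease and matrix list, the synapsins, Reck, Mmp9, Mmp16 and Mmp17, the 5 genes nearest to Timp1, and Nr2f1 and Spry1 for direction. Alternatives covered centring, scaling, ceiling values, the probe filter, single dye orders, averaged probes, the variance model, one mean over pools, a replicate block and each pool left out. Marker medians less the pool's median, the endothelial list without Esam and the comparison with Timp1 over the same arrays were added after seeing the data.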

Additional observations from a re-analysis of the deposited data

How the results depend on the processing

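No probe passed for the difference between strains under any of its 15 alternatives in limma. For the caudal ratio, 1 probe passed with each array centred and scaled, and 1 when the arrays entered singly with a dye term and the pool as a replicate block. That block gave Timp1 the same 1.49. Replicate numbers do not pair the strains, whose pools come from different litters. For the dye order, 2 probes passed with arrays centred, 11 with arrays centred and scaled, and 2 among the 8924 probes measured on all arrays. The strain difference of Timp1 turned to -0.088 when only arrays carrying rostral RNA in Cy5 were kept, and the other 74 strain differences of the members kept their sign and their side of the threshold. The caudal mean of Timp1 ranged over 1.28 to 1.70 with a pool left out, and over 0.632 to 2.35 across its 16 alternatives. That of Mmp2 moved to -0.105 and 0.424 by dye order. The cause of these changes was not tested. With the counts of called probes at 0 under each pool left out, a lone remaining C57 pool was assumed to vary like the others. Timp4 was measured on too few arrays to be fitted.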
